A study of Mus musculus with 6 samples.

Results

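The antiviral interferon-stimulated genes are the effector side of the interferon response, and 32 of them were followed through cultured mouse hepatocytes given tumour necrosis factor alpha (TNFα), an inflammatory cytokine. The 32 symbols were listed with earlier results of these data known, so their counts against all genes describe the list and are not independent evidence. All array features that the platform annotation maps to the symbols were taken, whatever their values. Of the 32 genes, 31 had at least 1 named feature (56 features together), among 19057 genes named on the array, and Ifi44 was not analysed here. The cells were primary hepatocytes, isolated from the liver of male C57Bl/6J mice, and their RNA was read on 6 Illumina BeadChip arrays. Of these, 2 held untreated cells, 2 held cells exposed to 2 ng/mL recombinant murine TNFα for 2 hours, and 2 held cells exposed to that dose for 2 days. All groups shared collagen-coated plates and a medium with 5% fetal calf serum, 50 nM dexamethasone, a synthetic glucocorticoid, and 1 nM insulin. Whether same-group arrays had separate mice or dishes behind them is not stated in the labels, so each p-value reflects array-to-array spread alone, part or all of which may be technical. They also give no time in culture for the untreated cells, so at 2 days exposure and time in culture cannot be told apart.

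Interferons are secreted cytokines that bind cell surface receptors and act through the JAK kinases and a transcription factor complex that holds STAT2 and IRF9. The complex binds a DNA element, the interferon-stimulated response element (ISRE), near the start of its target genes. The products of those genes sense viral nucleic acid, block its translation or degrade it, change membranes, and tag proteins with the ubiquitin-like modifier ISG15. Several of the same genes can also be switched on by interferon regulatory factors without secreted interferon, and hepatocytes, a target of hepatitis viruses, are known to express many of them.

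Because the list is defined by a shared response, the promoters were searched for that element. RefSeq promoter windows of assembly GRCm38.p6, 250 bases before to 50 after each start, were given for 24 of the 32 genes. The ISRE core, GAAANNGAAA on either strand, was found in 13 of these 24 genes (54.2%), against 3.99% of all 27025 genes with a window (3.44% of all 32851 windows). The 160 bases before the start are shown for 5 genes, 5′ to 3′ on the gene's own strand, with ISRE core matches in capitals. Isg15, Oas1g and Ifit3 are genes that rose by 2 days, Rsad2 rose at 2 hours, and Ifit1 carries the same element but was not called at either time.
Isg15 (chr4:156200819-156200978, minus strand): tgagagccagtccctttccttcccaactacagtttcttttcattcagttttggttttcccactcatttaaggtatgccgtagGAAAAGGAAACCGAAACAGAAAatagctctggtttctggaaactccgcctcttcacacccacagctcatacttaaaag
Oas1g (chr5:120887614-120887773, minus strand): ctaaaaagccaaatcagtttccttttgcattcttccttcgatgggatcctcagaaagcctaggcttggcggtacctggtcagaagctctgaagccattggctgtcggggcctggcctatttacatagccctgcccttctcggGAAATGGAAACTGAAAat
Ifit3 (chr19:34583369-34583528, plus strand): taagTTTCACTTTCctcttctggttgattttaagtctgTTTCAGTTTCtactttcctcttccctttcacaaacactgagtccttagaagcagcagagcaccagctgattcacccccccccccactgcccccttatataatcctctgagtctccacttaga
Rsad2 (chr12:26456453-26456612, minus strand): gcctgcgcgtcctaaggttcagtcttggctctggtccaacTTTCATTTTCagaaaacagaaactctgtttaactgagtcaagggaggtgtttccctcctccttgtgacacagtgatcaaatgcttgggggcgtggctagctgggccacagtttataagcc
Ifit1 (chr19:34640729-34640888, plus strand): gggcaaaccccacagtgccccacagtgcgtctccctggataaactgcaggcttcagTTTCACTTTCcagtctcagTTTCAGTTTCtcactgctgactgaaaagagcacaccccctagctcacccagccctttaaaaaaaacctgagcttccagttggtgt
In Isg15, 3 overlapping cores spanned positions -78 to -57 from the start. In Oas1g, 2 overlapping cores lay at -18 to -3, directly before the start. Ifit3 held cores at -156 and -122 and Ifit1 at -104 and -85, all matched on the opposite strand. The STAT dimer element GAS, TTCNNNGAA on either strand, was found in 7 of the 24 genes (29.2%), against 9.55% of all genes. The κB consensus, bound by the NF-κB factors that TNFα activates, was found in 6 of 24 (25%), also against 9.55% of all genes. In Bst2 the GAS match starting at -136 overlapped both the κB match starting at -142 and the ISRE core starting at -130. A second ISRE core started at -124, and the κB match overlapped neither core. A match is a description of these letters, not a shown binding site. Among genes both tested and given a window, 6 of 10 with an ISRE core were called higher at 2 days. So were 6 of 9 without one, against 6.74% of all genes tested. The median changes at 2 days were 0.63 with a core and 0.46 without. At 2 hours 2 and 1 of them were called higher, against 1.76% of all genes. For GAS the 2 day counts were 2 of 6 with a match and 10 of 13 without. For the κB consensus they were 2 of 5 and 10 of 14. Whether a match bears on the change was not tested.

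Intensities are the deposited linear values, with their background still included, so fold changes of dim features are understated. Levels are compared between groups within a feature or, for cell type markers, within a sum over the same features. Between genes, levels are called only bright, dim or near background. A gene was tested when a feature of it exceeded the array's median intensity on at least 2 arrays. It was represented by its brightest such feature and called where limma's Benjamini-Hochberg adjusted p fell below 0.05 in a model over 13438 genes. By this rule 25 of the 31 genes were tested, of which 21 exceeded the median on both untreated arrays. Oasl2, Ifit1 and Parp9 did so on 1 untreated array. Isg20 did so on neither, and was tested only through 1 array at 2 hours and 1 at 2 days. The 6 genes not tested stayed dim on all arrays. Mx1, a dynamin-like GTPase, lay between 132 and 149, and Ifih1, the RNA sensor MDA5, between 123 and 149. Of the oligoadenylate synthetases, Oas1a lay between 117 and 145, Oas2 between 128 and 143, and the 2 features of Oas3 between 121 and 142. Both features of Xaf1, a pro-apoptotic interferon target, lay between 116 and 147. These genes are bounded by the background, not shown to be silent.

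At 2 hours 5 of the 25 tested genes rose and 0 were called lower by limma. Over all genes tested 1.76% were called higher and 1.06% lower. The 5 were the ADP-ribosyltransferase Parp14, the ubiquitin ligase Dtx3l, Isg15, the GTPase Mx2 and the radical SAM enzyme Rsad2. At an unadjusted p under 0.05, 10 were higher and 1 lower, and the median log2 change was 0.15, against -0.01 over all genes. Untreated and 2 hour arrays were fully apart for 15 genes that were higher and for 2, Ifit2 and Trim25, that were lower, against 18% and 22.4% of all genes. The count of 5 fell to 1 without the second untreated array and to 2 without either 2 hour array, and was 0 after background correction with normexp.

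At 2 days 16 of the 25 rose, against 6.74% of all genes, and 0 were called lower by limma (0 also at an unadjusted p under 0.05), against 5.92%. Oasl2, Isg15, Parp14, Oas1g and Eif2ak2 rose at least 2-fold. The median change was 0.46, against 0.01 over all genes. Untreated and 2 day arrays were fully apart for 21 genes that were higher and for 0 that were lower, against 26.1% and 23.5% of all genes. Of the 21 genes above the median on both untreated arrays, 15 rose. After normexp 9 of the 16 were called. Leaving out any single array left 14 to 16. The comparisons of 2 hours and 2 days share the untreated arrays, so their values are given side by side and not as separate support.

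**Figure D1:**
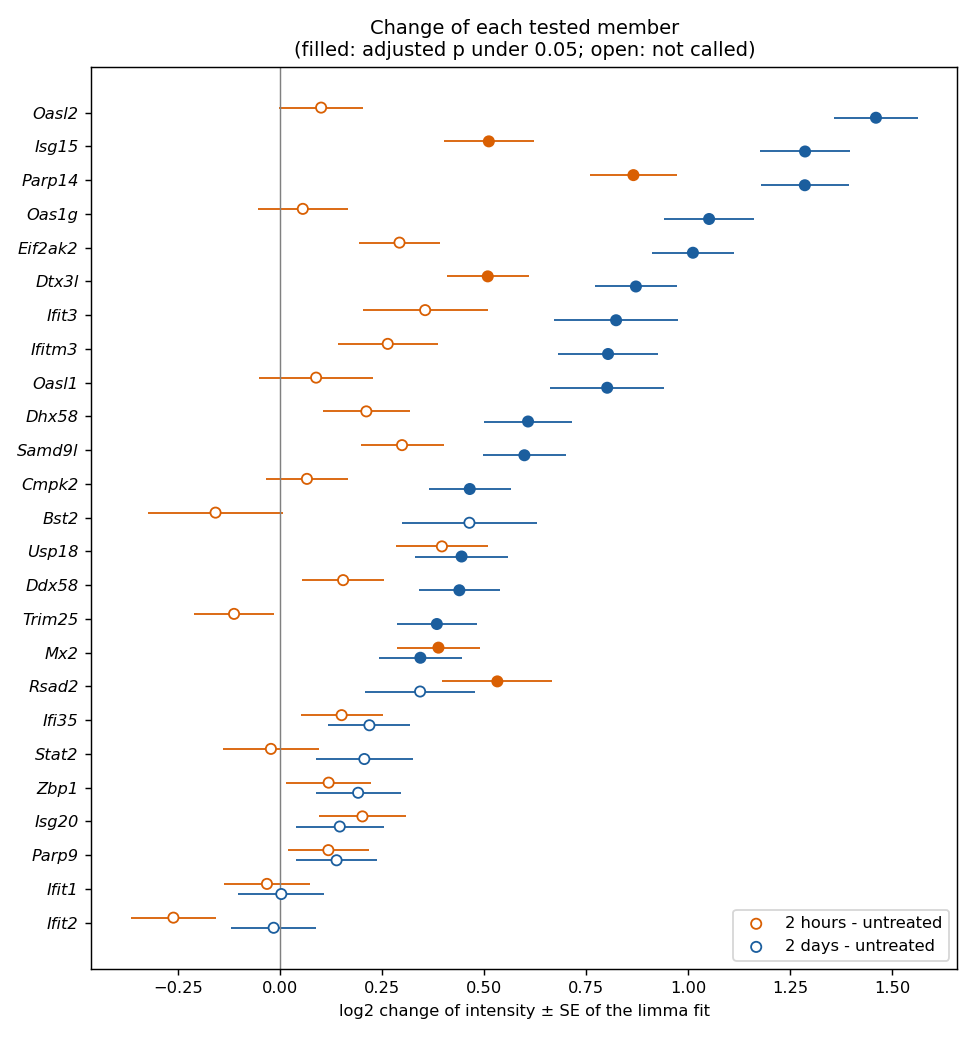
Log2 change of intensity against untreated cells for the 25 tested genes at 2 hours (orange) and 2 days (blue), with bars of 1 SE of the limma fit; filled points were called at an adjusted p under 0.05. At 2 days the points run from -0.02 for Ifit2 to 1.46 for Oasl2, and 16 are filled; at 2 hours 5 are filled, with Parp14 highest at 0.87.

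Compared directly, 14 of the 25 genes were higher at 2 days than at 2 hours, against 8.63% of all genes. By limma 0 were lower, also at an unadjusted p under 0.05, against 6.67% of all genes. The median difference was 0.36, against 0.01 over all genes, and the arrays were fully apart for 15 genes that were higher and for 0 that were lower at 2 days, against 29.4% and 23.4% of all genes. The count of 14 fell to 8 without either 2 hour array, to 7 without the second 2 day array, and to 5 after normexp. The 5 that remained after normexp were Cmpk2, Eif2ak2, Isg15, Oas1g and Oasl2.

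Stat2, the transcription factor of the interferon-activated complex, read 339 and 270 in untreated cells, 272 and 326 at 2 hours, and 374 and 326 at 2 days. The arrays of the 3 groups overlapped, and its change was -0.02 at 2 hours (adjusted p = 0.971 by limma) and 0.21 at 2 days (adjusted p = 0.326). Irf9, the DNA-binding subunit of the complex, rose at 2 days, from 599 ± 51.3 to 800 ± 87.2 (SD, n = 2; log2 0.41, SE 0.11, adjusted p = 0.00846 by limma).

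Of the 4 tested sensors of nucleic acid among the 32 genes, 3 rose at 2 days, against 6.74% of all genes tested. At 2 hours 0 were called by limma (1 at an unadjusted p under 0.05). Eif2ak2 encodes PKR, a kinase that halts translation on binding double-stranded RNA. It read 655 and 594 in untreated cells, 754 and 775 at 2 hours, and 1270 and 1247 at 2 days. The 3 groups did not overlap, yet the change at 2 hours was not called (0.29, adjusted p = 0.158 by limma). At 2 days it was 2.02-fold higher (log2 1.01, SE 0.10, adjusted p = 3.67e-08). Ddx58, the RNA helicase RIG-I, read 271 and 257, then 302 and 287, then 349 and 368. Its groups were apart too, and it rose 1.36-fold by 2 days (log2 0.44, SE 0.10, adjusted p = 0.00286). Dhx58, the related helicase LGP2 that tunes RIG-I signalling, read 320 and 265, then 334 and 340, then 463 and 426. It rose 1.52-fold by 2 days (log2 0.61, SE 0.11, adjusted p = 0.000189), and 2 of its 3 other features were called in the same direction. Against 2 hours, Eif2ak2 was higher by 0.72 (adjusted p = 7.98e-06) and Dhx58 by 0.40 (adjusted p = 0.0107), while Ddx58 missed the threshold (0.29, adjusted p = 0.0545). The Dhx58 call against 2 hours was lost without either 2 hour array (0.38 and 0.41) or the first 2 day array (0.34), and after normexp. Zbp1, a sensor of Z-form nucleic acid, read 191 and 173, 212 and 184, and 207 and 208, and was not called through this feature (0.19 at 2 days, adjusted p = 0.293). Its dimmer feature, tested with every feature on its own, was higher at 2 days by 0.43 (adjusted p = 0.00435).

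Isg15, the ubiquitin-like modifier, rose at both times. It read 422 and 363 in untreated cells, 579 and 538 at 2 hours, and 872 and 1046 at 2 days. Each group lay above the one before, with changes of 1.43-fold at 2 hours (log2 0.51, SE 0.11, adjusted p = 0.00667 by limma) and 2.44-fold at 2 days (log2 1.29, SE 0.11, adjusted p = 3.1e-09). Between the times the difference was 0.78 (adjusted p = 1.14e-05). The 2 hour call was lost without the second untreated array (0.40) or either 2 hour array (0.46 and 0.57), and after normexp. Usp18, the protease that removes ISG15 and dampens interferon receptor signalling, was bright already in untreated cells, at 4464 and 3526. It read 5046 and 5405 at 2 hours and 5052 and 5772 at 2 days, above the untreated arrays at both times. The change was called at 2 days (log2 0.44, SE 0.11, adjusted p = 0.00844) but not at 2 hours (0.40, adjusted p = 0.0631), and the 2 times differed by 0.05. The 2 day call was lost without the second untreated array (0.27) or the second 2 day array (0.35), and after normexp. The second feature of Usp18, tested with every feature on its own, was called at both times (0.49, adjusted p = 0.00861, and 0.58, adjusted p = 0.00045). Trim25, a ubiquitin ligase that activates RIG-I, read 1489 and 1441, then 1351 and 1357, then 1956 and 1868. It lay below the untreated arrays at 2 hours without being called (-0.11, adjusted p = 0.762) and rose by 2 days (0.38, SE 0.10, adjusted p = 0.0087). That call was lost without the second untreated array (0.36) or the first 2 day array (0.35), as the mean of its features (0.21), and after normexp. Its difference between the times was 0.50 (adjusted p = 0.000664) and was lost only after normexp (0.53), among the alternatives run.

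The active members of the oligoadenylate synthetase family make the messenger that switches on RNase L. Among the 32 genes, 3 of 3 tested family genes rose at 2 days, against 6.74% of all genes tested. At 2 hours 0 were called by limma (0 at an unadjusted p under 0.05). Outside the 32, Oas1b (-0.03), Oas1c (0.06), Oas1d (0.09) and Oas1e (-0.12) were not called at 2 days. These 4 lay near background, at 125 to 173. Oasl2, a family member with ubiquitin-like domains, read 153 and 141 in untreated cells, 159 and 156 at 2 hours, and 377 and 433 at 2 days. The untreated and 2 hour arrays lay near background, so the rise by 2 days was at least 2.75-fold (log2 1.46, SE 0.10, adjusted p = 8.85e-11 by limma). After normexp, which removes background, the log2 change was 2.50. Oas1g, an oligoadenylate synthetase, read 282 and 272, then 298 and 278, then 512 and 645. The 2 hour and untreated arrays overlapped (0.06, adjusted p = 0.918), and by 2 days the gene had risen 2.07-fold (log2 1.05, SE 0.11, adjusted p = 9.92e-08). Oasl1, which also limits Irf7 translation, read 399 and 345, then 327 and 475, then 564 and 741. It rose 1.74-fold by 2 days (log2 0.80, SE 0.14, adjusted p = 0.000183), a call lost after normexp (0.99), and both its other features were called too. Against 2 hours the differences were 1.36 for Oasl2 (adjusted p = 3.68e-10), 1.00 for Oas1g (adjusted p = 2.23e-07) and 0.71 for Oasl1 (adjusted p = 0.000615). The last was lost without the first 2 hour array (0.44) and after normexp.

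The IFIT family, proteins that bind viral RNA ends and block its translation, rose in 1 of 3 tested genes at 2 days. The share over all genes tested was 6.74%. Ifit3 read 235 and 236 in untreated cells, 257 and 353 at 2 hours, and 329 and 526 at 2 days. Both treated groups lay above the untreated arrays but overlapped with each other. It rose 1.77-fold by 2 days (log2 0.82, SE 0.15, adjusted p = 0.000353 by limma), a call lost after normexp (1.16). Its difference from 2 hours, 0.47 (adjusted p = 0.0377), fell to 0.13 without the second 2 day array and 0.24 without the first 2 hour array, and both lost the call. Ifit1 stayed near background, at 160 and 140, 137 and 156, and 148 and 152 (0.00 at 2 days, adjusted p = 0.994). Ifit2 read 286 and 261, then 220 and 236, then 253 and 289. Its 2 hour arrays lay below the untreated ones, a change of -0.26 that was not called (adjusted p = 0.271), and at 2 days the groups overlapped. The dimmer feature of Ifit2, tested with every feature on its own, was called lower at 2 days (-0.34, adjusted p = 0.0447).

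Mx2, a dynamin-like GTPase that is cytoplasmic in mice, read 149 and 163 in untreated cells, 204 and 204 at 2 hours, and 187 and 209 at 2 days. Both treated groups were above the untreated one. The gene rose 1.31-fold at 2 hours (log2 0.39, SE 0.10, adjusted p = 0.0357 by limma) and 1.27-fold at 2 days (log2 0.34, SE 0.10, adjusted p = 0.0257). The 2 hour call was lost without any 1 of the 4 arrays compared (0.32 to 0.46). The 2 day call was lost without the first untreated (0.28) or the second 2 day array (0.26). Both were lost after normexp, where the changes were 0.81 and 0.72.

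Of the enzymes that act on nucleotides, Rsad2 encodes viperin, which makes a chain-terminating nucleotide. Rsad2 read 486 and 371 in untreated cells, 523 and 722 at 2 hours, and 498 and 583 at 2 days. It was the only tested gene called at 2 hours and not at 2 days. The 2 hour rise was 1.45-fold (log2 0.53, SE 0.14, adjusted p = 0.0264 by limma), and the 2 day value was 0.34 (adjusted p = 0.107). The difference between the times was itself not called (-0.19, adjusted p = 0.425). The 2 hour call was lost without the second untreated array (0.34) or the second 2 hour array (0.30), and after normexp. It was also lost when every gene was read as the mean of its features (0.53, adjusted p = 0.145 by limma). Without the first untreated array the 2 day change was 0.54 and was called. Cmpk2, a mitochondrial nucleotide kinase encoded beside Rsad2, read 202 and 188, then 213 and 195, then 265 and 272. It rose only by 2 days among the times measured, 1.38-fold (log2 0.46, SE 0.10, adjusted p = 0.00186). Against 2 hours it was higher by 0.40 (adjusted p = 0.00642), a call lost without the second 2 hour array (0.34) or the second 2 day array (0.38). Isg20, an exonuclease, lay near background, between 127 and 164 on all arrays, and was not called (0.15 at 2 days, adjusted p = 0.487).

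Ifitm3, a membrane protein that blocks viral entry, read 9230 and 6917 in untreated cells, 9035 and 10184 at 2 hours, and 12860 and 15130 at 2 days. The 2 day arrays stood above the other 4. The gene rose 1.75-fold (log2 0.80, SE 0.12, adjusted p = 2.91e-05 by limma), a call lost after normexp (0.81). Against 2 hours it was higher by 0.54 (adjusted p = 0.00247), lost without the first 2 hour array (0.45) or the second 2 day array (0.42) and after normexp. Bst2, or tetherin, which holds budding virions on the cell, read 1449 and 1854, then 1637 and 1317, then 1713 and 2984. One 2 day array lay within the untreated range and the other well above it, and the change from untreated was not called (0.46, SE 0.17, adjusted p = 0.0693). It was called without the second untreated array (0.64) or the first 2 day array (0.86). Against 2 hours Bst2 was higher by 0.62 (adjusted p = 0.00978), which fell to 0.22 without the second 2 day array and to 0.47 without the second 2 hour array, and neither was called.

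Of the 3 tested genes of the PARP and DTX3L group, 2 rose at both times. Over all genes tested 1.76% rose at 2 hours and 6.74% at 2 days. Parp14, an ADP-ribosyltransferase, read 951 and 947 in untreated cells, 1849 and 1617 at 2 hours, and 2135 and 2508 at 2 days. The groups were stepwise apart, with rises of 1.82-fold at 2 hours (log2 0.87, SE 0.11, adjusted p = 4.37e-06 by limma) and 2.44-fold at 2 days (log2 1.29, SE 0.11, adjusted p = 1.74e-09). The 2 hour call was kept when any single array was left out and lost after normexp (0.93). Dtx3l, the ubiquitin ligase partner of Parp9, read 672 and 623, then 937 and 905, then 1139 and 1232. It too stepped up, 1.42-fold at 2 hours (log2 0.51, SE 0.10, adjusted p = 0.00275) and 1.83-fold at 2 days (log2 0.87, SE 0.10, adjusted p = 4.84e-07). The 2 hour call was lost without the second untreated array (0.45) or the first 2 hour array (0.48), and after normexp. Between the times Parp14 differed by 0.42 (adjusted p = 0.00693) and Dtx3l by 0.36 (adjusted p = 0.0133). The Parp14 difference was lost without the second 2 hour (0.32) or second 2 day array (0.30), and the Dtx3l difference without either 2 hour array (0.39 and 0.34) or the second 2 day array (0.31). Both were lost after normexp. Parp9 itself, encoded beside Dtx3l, lay near background, between 137 and 158 on all arrays, and was not called (0.14 at 2 days, adjusted p = 0.475). Its treated arrays lay above the untreated ones at both times, and a change could be hidden by the background.

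Samd9l, a cytoplasmic inhibitor of translation and virus growth, read 2222 and 2180 in untreated cells, 2806 and 2612 at 2 hours, and 3526 and 3150 at 2 days. The groups did not overlap, and the rise by 2 days was 1.51-fold (log2 0.60, SE 0.10, adjusted p = 0.000126 by limma), lost after normexp (0.62). The 2 hour change was 0.30 (adjusted p = 0.154). The difference between the times, 0.30 (adjusted p = 0.0466), was lost when any 1 of the 4 arrays compared was left out (0.22 to 0.38). Ifi35, an interferon-induced leucine zipper protein, read 728 and 667, then 755 and 792, then 789 and 834. Its treated arrays lay above the untreated ones without being called (0.15 at 2 hours, adjusted p = 0.64, and 0.22 at 2 days, adjusted p = 0.189).

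**Figure D2:**
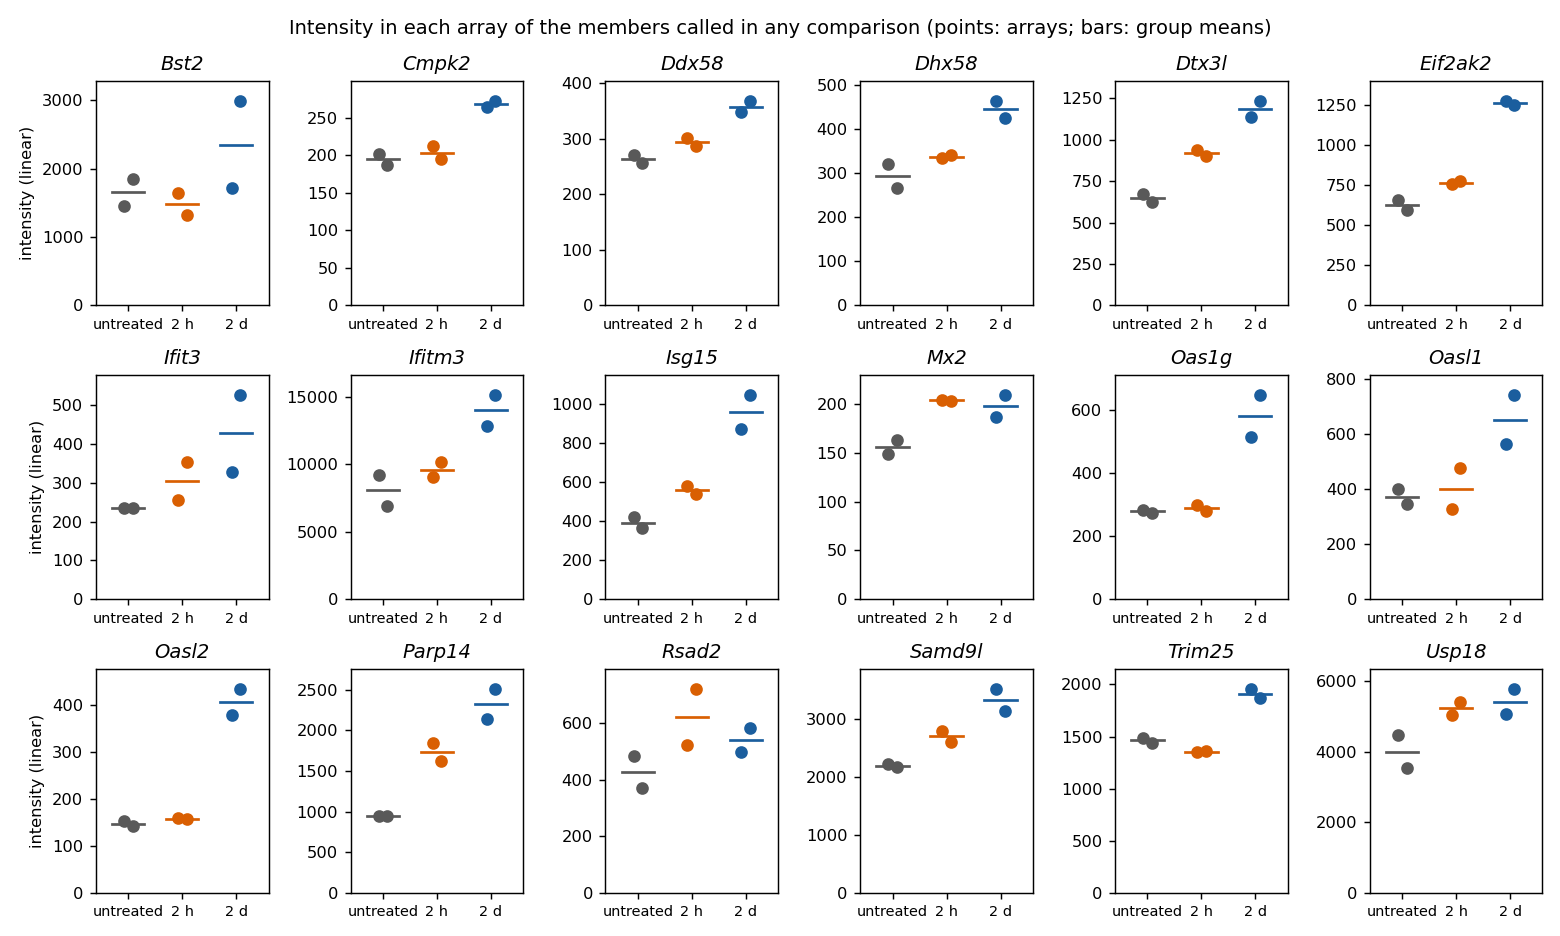
Deposited intensity (linear axis from 0) on each array for the 18 genes called in any of the 3 comparisons, with points for arrays and bars for group means of untreated cells, 2 hours and 2 days. Oasl2 and Oas1g were not called at 2 hours and were higher at 2 days, with no time between measured. Parp14 and Isg15 step up at both times, and Rsad2 and Mx2 are no higher at 2 days than at 2 hours on average.

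Several genes had over 1 feature on the array, and these did not always agree. The 2 dimmer features of Parp14 changed by 0.11 each at 2 days, and those of Oasl2 by -0.07 and 0.15, none of them called. All 4 read between 121 and 163 on every array, near background. Averaged over its features, Parp14 changed by 0.50 at 2 days and 0.44 at 2 hours, and Oasl2 by 0.51 at 2 days, all still called. The dim second feature of Dtx3l changed by 0.03 at 2 days, and the mean of its features at 2 hours, 0.24, was not called. For Dhx58, Oasl1 and Usp18 the brighter features were called together at 2 days, as were the brighter 2 of the 3 Oas1g features that passed the filter. The second feature of Ifit3, at 159 to 198, changed by 0.18 at 2 days and was not called (adjusted p = 0.337 by limma). Which transcript each feature targets was not analysed here.

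**Figure D3:**
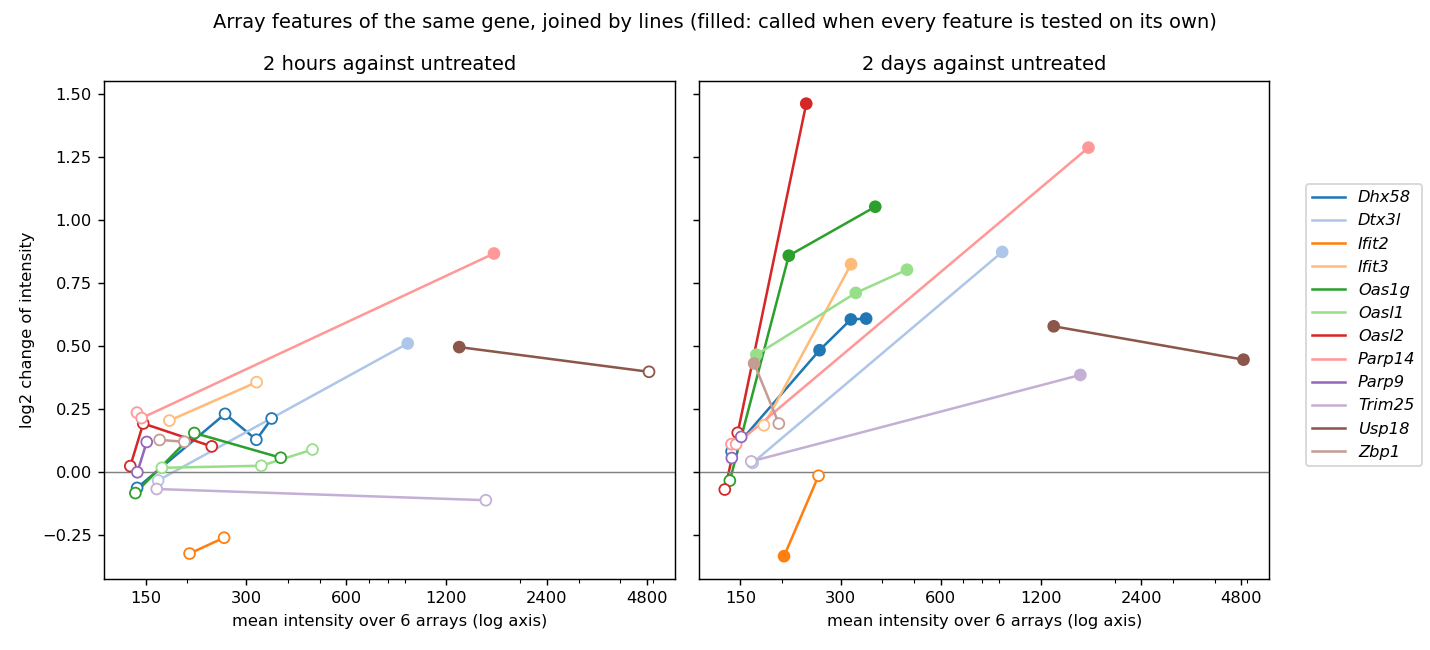
Log2 change against untreated cells (y axis) by mean intensity over the 6 arrays (x axis, log scale) for the genes with over 1 feature above the filter, with lines joining features of a gene and filled points called when every feature is tested on its own. At 2 days the bright Parp14 feature lies at 1.29 and its dim features at 0.11, and the Ifit2 feature at -0.34 is the only filled point below 0.

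Upstream of these genes, no interferon transcript was called. Of 19 interferon ligand genes 18 had a feature and 10 were tested, and 0 were called at 2 hours or 2 days by limma (0 at an unadjusted p under 0.05). Their tested features ranged in change from -0.18 to 0.20 at 2 days. Apart from Ifna6 and Ifnab, the tested ligand features lay near background, at 117 to 183, and the untested ones read at most 167. Most ligand transcripts are thus bounded by the background, and are shown neither as silent nor as unchanged. Ifnb1, the first interferon made by many infected cells, did not pass the filter and read at most 136. Of 11 receptor and JAK-STAT genes 9 were tested, and 3 rose at 2 hours and 3 at 2 days. By limma 0 were called lower (0 at an unadjusted p under 0.05). Over all genes tested 1.76% were called higher and 1.06% lower at 2 hours, and 6.74% and 5.92% at 2 days. Ifngr1 (0.58), Ifngr2 (0.49) and Ifnlr1 (0.58), receptor chains for interferon gamma and lambda, rose at 2 hours. Ifngr2 (0.50), Irf9 and Il10rb (0.39), a chain shared with the interleukin 10 receptor, rose at 2 days.

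Of 15 genes for sensing and induction upstream of interferon, 12 were tested. At 2 hours 4 rose, against 1.76% of all genes tested. At 2 days 5 rose, against 6.74%, and 1 fell, against 5.92%. Irf1, a transcription factor that can bind ISRE-like elements, read 1110 ± 52.8 in untreated cells, 7651 ± 943 at 2 hours and 1871 ± 269 at 2 days (SD, n = 2). It was lower at 2 days than at 2 hours (-2.03, adjusted p = 1.24e-12 by limma) but still above untreated cells (0.75, adjusted p = 2.93e-05). Ikbke, a kinase of the interferon regulatory factors, rose by 1.73 and 1.22 at the respective times, Irf5 by 1.32 and 0.55, and the adaptor Myd88 by 0.80 and 0.53. Irf7, the regulator that amplifies interferon production and is itself interferon-stimulated, was late. It read 233 and 192, then 256 and 236, then 349 and 408, a change of 0.22 at 2 hours (adjusted p = 0.476 by limma) and 0.84 at 2 days (adjusted p = 5.08e-06). Mavs, the mitochondrial adaptor of RIG-I, fell by 2 days (-0.59, adjusted p = 0.000111). Of 7 feedback genes, the Socs and phosphatase family among them, 0 were called at either time by limma, and at an unadjusted p under 0.05 there was 1 at 2 hours and 0 at 2 days.

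Beyond the 32 genes, 47 of a further 64 interferon-stimulated genes were tested. At 2 hours 4 rose, against 1.76% of all genes tested. At 2 days 17 rose, against 6.74%, and 1, Phf11d, fell (-0.78), against 5.92%. Their median change at 2 days was 0.20, against 0.01 over all genes. Uba7 (1.02) and Ube2l6 (0.96), the activating and conjugating enzymes for ISG15, rose at 2 days. So did the GTPase Gbp3 (1.09), the glycoprotein Lgals3bp (0.92) and Ifitm1 (0.89), a relative of Ifitm3. Gbp3 was among the 4 that rose at 2 hours (0.44, adjusted p = 0.038 by limma). Compared directly, 15 of the 47 were higher at 2 days than at 2 hours, against 8.63% of all genes tested. Another 3 were lower at 2 days than at 2 hours, against 6.67%.

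**Figure D4:**
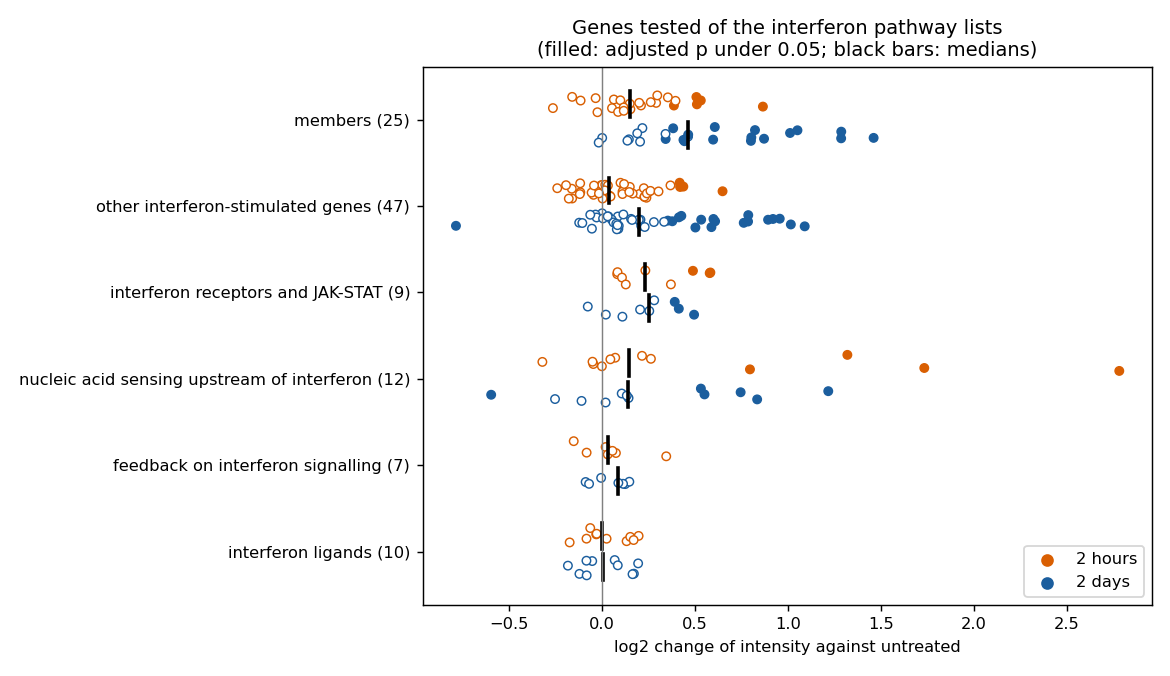
Log2 change against untreated cells of the tested genes of each interferon pathway list at 2 hours (orange) and 2 days (blue), with filled points called at an adjusted p under 0.05, black bars at the list medians and the number tested in brackets. The medians of the 25 genes described here are 0.15 and 0.46, no ligand is filled, and the rightmost point is Irf1 at 2 hours, 2.78.

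Cell type markers were read on the same arrays, since in a bulk sample fewer cells of a type and less RNA per cell cannot be told apart. Over all genes tested 1.76% were called higher and 1.06% lower at 2 hours, and 6.74% and 5.92% at 2 days. Of 13 hepatocyte markers tested 0 were called at 2 hours and 5 fell at 2 days. Their summed intensity was 173208 to 183857 in untreated cells, 178019 to 181454 at 2 hours and 127203 to 128587 at 2 days. The 5 were the urea cycle enzyme Cps1 (-3.10), the cytochrome P450 Cyp3a11 (-2.97), the asialoglycoprotein receptor chain Asgr1 (-1.60), the apolipoprotein Apoa1 (-0.82) and the hepatocyte transcription factor Hnf4a (-0.82). Cps1 read 13588 ± 2180 in untreated cells and 1573 ± 109 at 2 days (SD, n = 2). The sum is carried by the brightest features, among them Apoa1, at 41566 ± 210 in untreated cells. The features named Alb, Fgb and Pck1 lay near background, at 119 to 174. Of 12 Kupffer cell and macrophage markers 4 rose at 2 days, the complement genes C1qb (0.75), C1qc (0.42) and C1qa (0.36) and, at the threshold, Cd163 (0.31, adjusted p = 0.0499 by limma). That list summed to 1969 to 2050 in untreated cells, 1963 to 1989 at 2 hours and 2230 to 2392 at 2 days. All marker sums keep the background of each feature, with array medians of 143.16 to 143.22. Relative shifts in the sums of dim features are therefore understated. Adgre1, Csf1r and Timd4 lay near background, at 130 to 174, and Clec4f did not pass the filter, at 140 or below. Vsig4 read 234 and 224 in untreated cells, 191 and 199 at 2 hours, and 223 and 263 at 2 days. It was called higher at 2 days than at 2 hours (0.31, adjusted p = 0.0433 by limma). Against untreated cells it was not called at 2 days (0.08, adjusted p = 0.739), and its 2 hour arrays lay below the untreated ones (-0.23, not called). Lyz2 changed by -0.21 at 2 hours and -0.09 at 2 days and was not called. Marco read 197 and 193 at 2 days, above 145 and 173 in untreated cells, and was not called against them (0.30). Of 7 tested markers of plasmacytoid dendritic cells and lymphocytes 0 were called by limma at either time (0 at an unadjusted p under 0.05), with sums of 1392 to 1484 over all arrays, and Siglech lay at 125 to 145. Of 9 endothelial markers 1, Oit3 (0.43), rose and 1, Stab2 (-0.37), fell at 2 days, with sums of 1645 to 1870 over all arrays. Of 5 stellate cell markers 1, the smooth muscle actin gene Acta2 (0.67, adjusted p = 0.00114 by limma), rose and 1, Reln (-0.82), fell at 2 days, and Reln had risen at 2 hours (0.43). The stellate list summed to 2462 and 2881 in untreated cells, 2713 and 2514 at 2 hours, and 3192 and 3872 at 2 days. The part of these shifts in the 2 day result was not tested.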

How the data were processed

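The deposited table holds 1 linear intensity for each of 45281 features on 6 arrays. For the authors' normalization step, nothing is stated (not given in the sources used here). Its 6 deposited intensity columns share 1 distribution, with sorted values within 0.333% of each other, medians of 143.16 to 143.22 and a lowest value of 96.54, so background was not subtracted. Biotin-labelled cRNA was hybridised, per the labels' protocols.

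The platform's probe table gave 1 symbol to 34885 features, several to 18 and none to 10378. Through entrez identifiers 34807 matched RefSeq names (GRCm38.p6). Intensities were taken to log2 without further scaling. Features above the 50th array percentile on at least 2 arrays were kept (26272, of which 21425 had 1 symbol). The brightest stood for each of 13438 genes, 5290 of which had several. Group means were fitted over all arrays with limma 3.58.1 (R 4.3.3, prior degrees of freedom 21.2, residual 3), after a check on simulated data. Correlations over these genes were 0.995 to 0.996 within groups and 0.982 to 0.991 between them. The number of arrays limits the precision.

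Members and lists were chosen with earlier results of these data known. Genes called in any comparison, or changed by 0.5 or more on the log2 scale, are given on every array, as are most others tested. From other lists at most 6 called genes were to be named, by size of change, plus Irf1, Irf7 and Irf9; these rules do not cover marker genes and features near background, which were named after their values were seen. Same-numbered arrays did not deviate together (correlations -0.15, -0.08 and 0.04), and replicate numbers were not used to pair samples in the main fit. Such correlations cannot exclude pairing with an effect below the array-to-array spread. Promoter windows of Dhx58, Mx1, Mx2, Oas2, Parp14, Parp9, Usp18 and Zbp1 were not analysed here.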

Additional observations from a re-analysis of the deposited data

Results flagged for a closer look

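The change at 2 days differed from the change at 2 hours for 14 of the 25 tested genes, each higher at 2 days. The test was limma's direct one between the times (Benjamini-Hochberg adjusted over 13438 genes). Over all genes tested 8.63% were called higher and 6.67% lower. Since both changes have the same untreated arrays, their difference is the log2 difference between the 2 day and 2 hour arrays. It was 1.36 for Oasl2, 1.00 for Oas1g, 0.78 for Isg15, 0.72 for Eif2ak2 and 0.71 for Oasl1. It was 0.62 for Bst2, 0.54 for Ifitm3, 0.50 for Trim25, 0.47 for Ifit3 and 0.42 for Parp14. It was 0.40 for Cmpk2, 0.40 for Dhx58, 0.36 for Dtx3l and 0.30 for Samd9l. Of these only Oasl2, Oas1g, Isg15 and Eif2ak2 kept the call under every alternative run. For Ifit3 the 2 day and 2 hour arrays overlapped, while for the other 13 they did not. Over all genes tested, the arrays were fully apart and higher at 2 days for 29.4%. The 14 genes were picked by this same comparison, so the lack of overlap adds no separate support.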

How the results depend on the processing

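No called gene and no median of the tested members changed sign under the alternatives run. Of 35 gene calls in the 3 comparisons, 13 were kept under all of them: Cmpk2, Ddx58, Dhx58, Dtx3l, Eif2ak2, Isg15, Oas1g, Oasl2 and Parp14 at 2 days against untreated, and Eif2ak2, Isg15, Oas1g and Oasl2 between the times. Normexp background correction with an offset of 16 gave 0 genes higher at 2 hours, 9 at 2 days and 5 between the times, with fewer calls over all genes too (81, 348 and 413 higher, against 237, 906 and 1160). It raised the changes of dim features, and the cause of the lost calls was not tested. At an adjusted p under 0.01 the 2 hour count was 3. Leaving out 1 array gave 1 to 6 genes higher at 2 hours and 7 to 14 between the times, from fewer arrays. With every feature tested on its own, 1 was lower at 2 days, that of Ifit2. A fit with the replicate block gave 5, 17 and 13 genes higher, with Bst2 gained at 2 days and Samd9l lost between the times. With 2 arrays a group, and background within the intensities, a miss near the threshold is not evidence of no change.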
